A study of Mus musculus with 6 samples.

Results

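Motile cilia beat with an axoneme, a cylinder of doublet microtubules around a central pair, and the 58 genes described here carry symbols of its parts: dynein heavy chains (Dnah), tektins (Tekt), radial spoke proteins (Rsph), subunits of the nexin-dynein regulatory complex (Drc) and cilia and flagella associated proteins (Cfap). They were chosen by a rule on symbols alone, which uses no counts, from the 53686 genes of a table of read counts. No symbol starting with Dnai was present, since the dynein intermediate chains carry older names in the table. One of the 58, Dnah2os, is annotated on the opposite strand of Dnah2 and is not known to encode an axoneme part.

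In a motile cilium, dynein arms bound to one doublet walk along the next, and their ATP-driven strokes slide the doublets. Outer arms set mainly the beat frequency and inner arms the waveform, while radial spokes and the central apparatus coordinate the arms and the nexin-dynein links hold the sliding doublets together. In the nose these genes are known mainly from the multiciliated cells of the respiratory epithelium, which clear mucus. The cilia of olfactory sensory neurons carry the odorant receptors and, in the mouse, lack dynein arms and do not beat.

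Poly-A RNA came from dissected main olfactory epithelium (MOE), which holds olfactory neurons, their progenitors, supporting cells and glands, and in practice neighbouring respiratory epithelium. The 3 tested libraries came from mice hemizygous for 5x21-OR1A1 and the 3 others from wild-type mice, all on the C57BL/6J strain. The transgene joins a multimer of a short enhancer element, which raises the frequency with which neurons choose the receptor behind it, to the human odorant receptor OR1A1. The labels give neither age, sex, number of founder lines nor number of animals per library, so every p-value here speaks of the spread between libraries, which may be technical. The libraries held 35423577, 29725688 and 27506217 counts in 5x21-OR1A1 tissue and 30908191, 35804712 and 30177731 in wild-type tissue. Omp, the olfactory marker protein, was at 6787 ± 190.5 CPM in 5x21-OR1A1 and 11518 ± 1581 CPM in wild-type tissue (SD, n = 3 each; CPM are counts scaled to a common library total by TMM), and Foxj1, the master regulator of motile ciliogenesis, at 247 ± 13.2 and 228 ± 14.2 CPM, so markers of both kinds of tissue were present in both groups.

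Wild-type library 2 stood apart for the axoneme genes. It was the lowest of all 6 libraries for 36 of the 56 that could be tested, or 64.3%, against 24.7% of all 19267 tested genes, and the highest for 4, Cfap36, Cfap46, Cfap69 and Dnah14. The median axoneme gene lay 0.27 below its own 6-library mean there on the log2 scale, while in the other libraries the median lay between 0.03 and 0.10 above it. The same library was lowest for 13 of 18 other markers of respiratory ciliated cells and highest for 13 of 14 markers of mature olfactory neurons. A log2 fold change of an axoneme gene that moved by over 1.5 times without it is given both ways.

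**Figure D1:**
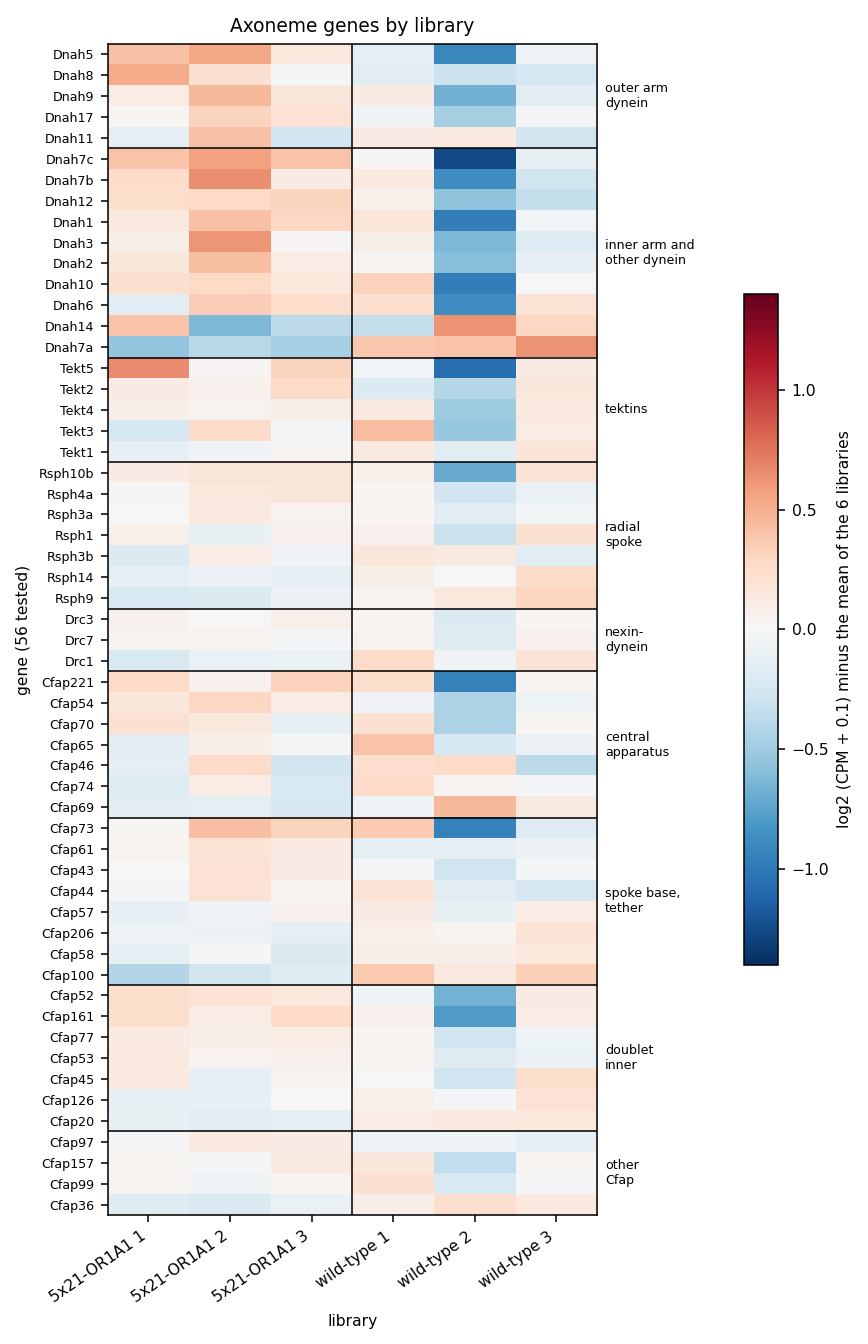
Level of each tested axoneme gene (rows, by role) in each library (columns, 5x21-OR1A1 at left and wild-type at right), as log2 of CPM plus 0.1 minus the gene's mean over the 6 libraries (colour). Most dynein heavy chains and all 5 tektins are palest or bluest in wild-type library 2, which was lowest for 36 of 56 genes, while Dnah7a and Cfap100 are low in all 3 5x21-OR1A1 libraries.

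Few axoneme genes passed the genotype test, and the median and summed level of the whole set differed little between groups. Of 56 tested, 2 were lower in 5x21-OR1A1 tissue, Dnah7a and Cfap100, and 0 were higher (edgeR quasi-likelihood test, adjusted p under 0.05 over all genes), or 3.57% called against 2.71% of all tested genes. The share is near that background, which was 2.20% for lower and 0.519% for higher calls. At an unadjusted p under 0.05, 9 were higher and 10 lower, 33.9% of the axoneme genes against 17.1% of all genes. DESeq2 called 1 higher (Dnah5) and 5 lower (Cfap100, Cfap20, Cfap36, Dnah7a and Rsph9), where it called 6.29% of all genes, and limma-voom, with 2.61% of all genes called, gave 0 higher and 2 lower. The median log2 fold change was 0.12, against 0.02 for all tested genes, with 37 above 0 and 19 below. The other 2 genes had too few counts to test: Dnah2os, at 0.147 ± 0.0701 CPM in 5x21-OR1A1 and 0.0693 ± 0.0380 CPM in wild-type tissue (SD, n = 3 each), and Rsph6a.

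Summed over all 58, the axoneme genes stood at 2143, 2217 and 2184 CPM in 5x21-OR1A1 libraries and at 2331, 2058 and 2365 CPM in wild-type libraries. The groups overlapped, since wild-type library 2 was the lowest of all 6 and the other 2 wild-type libraries the highest. The mean log2 ratio was -0.04 (SE 0.065), and the genes took 0.216 to 0.222% of counts in 5x21-OR1A1 and 0.209 to 0.238% in wild-type tissue. In such bulk tissue, fewer ciliated cells and less RNA per ciliated cell cannot be told apart. The values are relative to the whole tissue: with counts scaled to the mature neuron markers, which were themselves lower in 5x21-OR1A1 tissue, the median of all genes moved to 0.71 and that of the axoneme genes to 0.79.

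The groups did not overlap for 23 tested axoneme genes. All 3 5x21-OR1A1 libraries lay above all 3 wild-type libraries for 13 of 56, or 23.2% against 11.4% of all tested genes: Dnah2, Dnah5, Dnah7c, Dnah8, Dnah12, Dnah17, Cfap43, Cfap52, Cfap53, Cfap54, Cfap61, Cfap77 and Cfap97. They lay below for 10, or 17.9% against 12.5% of all tested genes: Dnah7a, Rsph9, Rsph14, Drc1, Cfap20, Cfap36, Cfap58, Cfap69, Cfap100 and Cfap206. Of the first class, 6 of 13 were dynein heavy chains, and of the second, 1 of 10 was, where 15 of the 56 tested genes are such chains. Of the chains, 40% thus lay above and 6.67% below, against 11.4 and 12.5% of all tested genes. Wild-type library 2 was the lowest library for each chain of the first class. Dnah17 was separate on few counts, 20, 20 and 17 in 5x21-OR1A1 and 16, 13 and 15 in wild-type libraries.

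**Figure D2:**
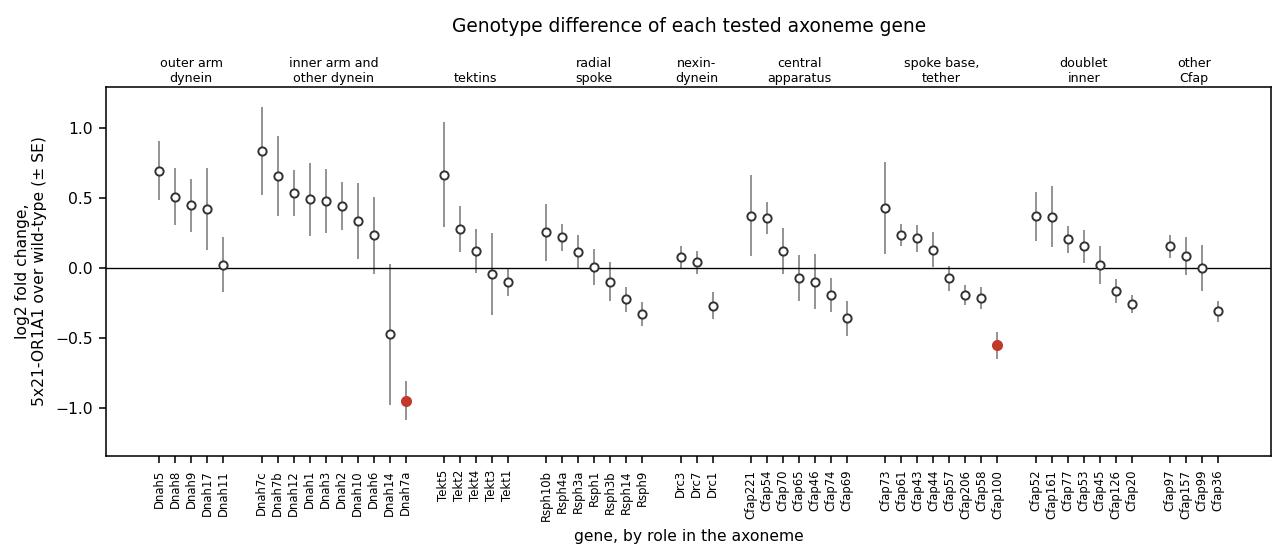
Log2 fold change of each tested axoneme gene, 5x21-OR1A1 over wild-type, with its standard error (vertical lines), grouped by role along the horizontal axis; filled red points passed an adjusted p under 0.05. Dnah7a (-0.95) and Cfap100 (-0.55) are the only filled points, and 13 of 15 dynein heavy chains lie above 0, as they did under every scaling tried except 2: when scaled to ciliated cell markers 12 did, and scaled to mature neuron markers 14 did.

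The dynein heavy chains, the ATP-driven motors of the arms, had the highest median of the 5 symbol families. Of 15 tested, 1 was called, Dnah7a, or 6.67% against 2.71% of all tested genes. The median log2 fold change was 0.45, against 0.02 for all tested genes. At an unadjusted p under 0.05, 6 were higher and 1 lower, where 1441 and 1852 of all 19267 tested genes were. Over all genes, 17.1% reached that unadjusted p, and edgeR, DESeq2 and limma-voom called 2.71, 6.29 and 2.61%. These shares are the background for the family and list counts below. Together the 15 chains stood at 269, 321 and 262 CPM in 5x21-OR1A1 libraries and at 253, 149 and 227 CPM in wild-type libraries. All 3 5x21-OR1A1 libraries thus lay above all 3 wild-type libraries (mean log2 ratio 0.47, SE 0.25). That separation did not hold throughout the family. The 10 inner arm and other chains summed to 107, 128 and 112 CPM in 5x21-OR1A1 and 113, 60.8 and 100 CPM in wild-type libraries. For them the groups overlapped. The 5 outer arm chains, Dnah5 among them, summed to 162, 194 and 150 against 140, 88.5 and 127 CPM, without overlap. Wild-type library 2 was the lowest of 6 for 12 of the 15. Without it the median was 0.27 and 12 of 15 values lay above 0.

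The outer arm is built in airway cilia from Dnah5 with Dnah9 or Dnah11, while Dnah8 and Dnah17 are known from sperm flagella. Dnah5, whose loss causes primary ciliary dyskinesia, was at 75.1, 81.9 and 62.2 CPM in 5x21-OR1A1 libraries and at 51.2, 30.1 and 54.1 CPM in wild-type libraries. The groups did not overlap, but the value of 0.70 (SE 0.21) missed the threshold (edgeR adjusted p = 0.150), and it was 0.48 without wild-type library 2 (adjusted p = 0.127). Dnah9, its partner along the distal cilium, averaged 78.5 ± 10.6 CPM in 5x21-OR1A1 and 57.5 ± 15.2 CPM in wild-type tissue (SD, n = 3 each), and wild-type library 1, at 71.7 CPM, lay within the 5x21-OR1A1 range; the log2 fold change of 0.45 was 0.27 without wild-type library 2. Dnah11, the partner at the base, averaged 13.7 ± 3.60 and 13.4 ± 1.95 CPM (log2 fold change 0.02, SE 0.20), a value that was 0.10 without wild-type library 2 and turned to -0.10 with counts scaled to ciliated cell markers. Part of its exons, 4.44%, overlap the opposite strand gene Cdca7l, whose reads cannot be told apart in these unstranded libraries.

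Per kilobase of exon, the sperm forms were low. Dnah8 was at 0.107 ± 0.0208 CPM per kb in 5x21-OR1A1 and 0.0753 ± 0.00385 CPM per kb in wild-type tissue, and Dnah17 at 0.0384 ± 0.00439 and 0.0286 ± 0.00561 (SD, n = 3 each). The airway forms Dnah5, at 4.67 ± 0.641 and 2.89 ± 0.839 CPM per kb, and Dnah9, at 4.92 ± 0.664 and 3.61 ± 0.951, lay far above them in every library. Dnah11 stood between, at 0.944 ± 0.249 and 0.928 ± 0.135. Low levels were not particular to the sperm forms. Dnah14 was at 0.0144 ± 0.00799 and 0.0206 ± 0.00853 CPM per kb and Dnah7b at 0.180 ± 0.0368 and 0.114 ± 0.0400. Rsph6a, the sperm form of the spoke head protein Rsph4a, had 0, 1 and 0 counts in 5x21-OR1A1 and 1 count in each of the 3 wild-type libraries, below the floor of 3 counts, or 0.0818 to 0.110 CPM. Rsph4a itself was at 14.8 ± 0.841 CPM per kb in 5x21-OR1A1 and 12.7 ± 1.33 CPM per kb in wild-type tissue. Of 10 sperm cell markers, such as the protamines, 0 had enough counts to be tested, and they summed to 16, 5 and 8 counts in 5x21-OR1A1 and 13, 7 and 10 counts in wild-type libraries.

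Among the inner arm chains Dnah1, Dnah2 and Dnah10 averaged 16.5 ± 1.54, 16.6 ± 1.98 and 24.1 ± 1.11 CPM in 5x21-OR1A1 and 11.7 ± 4.35, 12.2 ± 2.61 and 19.1 ± 7.88 CPM in wild-type tissue (SD, n = 3 each). Dnah2 and Dnah10 form the double-headed inner arm, and their values were 0.45 (SE 0.17), or 0.29 without wild-type library 2, and 0.34 (SE 0.28). The value of Dnah1, 0.49, was 0.22 without that library. Dnah10 was at 26.1, 10.6 and 20.8 CPM in wild-type libraries 1, 2 and 3, a range that held all 3 5x21-OR1A1 values, and its value was 0.05 without library 2. The single-headed chain Dnah6 was at 0.23 with that library and -0.04 without it. Dnah3 (0.48, or 0.31 without it) shares 10.5% of its exonic bases with the opposite strand gene Lyrm1. Dnah12 (0.54, SE 0.17, edgeR adjusted p = 0.155) did not overlap between groups, at 11.9, 12.2 and 12.5 CPM in 5x21-OR1A1 and 10.5, 6.76 and 7.96 CPM in wild-type libraries. Without wild-type library 1 Dnah12 passed as higher in edgeR, where 3.19% of all genes were called. Dnah14 was barely detected, at 0.137 to 0.382 CPM in 5x21-OR1A1 and 0.191 to 0.467 CPM in wild-type libraries.

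The length of these genes was set beside their values. The 16 tested axoneme genes with at least 12000 bp of exon, 15 of them dynein heavy chains and the other Cfap54, had a median log2 fold change of 0.45 and a median of -0.57 for wild-type library 2 against the mean of libraries 1 and 3. All 860 tested genes of that length had medians of 0.08 and 0.10. The 21 axoneme genes between these lengths had medians of 0.02 and -0.18, and all 10620 tested genes between them 0.03 and 0.03. The 19 axoneme genes under 3000 bp had medians of 0.04 and -0.32, and all 7395 tested genes under that length -0.01 and -0.08. The part of transcript length in these values was not tested.

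Dnah7a, a single-headed inner arm chain, had the largest fold change of the axoneme genes that passed the threshold. It was at 3.65, 4.08 and 3.87 CPM in 5x21-OR1A1 libraries and at 7.02, 7.11 and 8.34 CPM in wild-type libraries. The groups were well apart, with the highest 5x21-OR1A1 library far below the lowest wild-type library. The log2 fold change was -0.95 (SE 0.14, edgeR adjusted p = 0.0137), and -0.98 without wild-type library 2 (adjusted p = 0.0288). Without 5x21-OR1A1 library 1, 2 or 3 the adjusted p was 0.0772, 0.0603 and 0.0841, at log2 fold changes between -0.91 and -0.99. It lies at chr1:53397006-53706784 on the minus strand of GRCm38 with 67 exon blocks.

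The mouse has 3 near-identical copies of this gene. Dnah7b lies at chr1:46066315-46373546 and Dnah7c at chr1:46425592-46807476, both on the plus strand. Over 12072 aligned coding bases Dnah7a was 97.0% identical to Dnah7b and 96.8% to Dnah7c, and Dnah7b was 97.3% identical to Dnah7c. Of all 100-base windows of their transcripts, the length of the reads, 19.96, 23.5 and 24.9% for Dnah7a, Dnah7b and Dnah7c also occurred without a mismatch in another gene, so a read from there cannot be assigned, and their single values are uncertain to that extent. A coding stretch of read length, from 1 exon and with the typical number of differences, shows how little separates the copies (GENCODE transcripts on GRCm38, at chr1:53523810-53523909 on the minus strand for Dnah7a and at chr1:46223107-46223206 and chr1:46655512-46655611 on the plus strand for Dnah7b and Dnah7c); capitals mark the 4 positions where the copies are not all alike, of which Dnah7b is unlike Dnah7a at 1 and Dnah7c at 3.
Dnah7a: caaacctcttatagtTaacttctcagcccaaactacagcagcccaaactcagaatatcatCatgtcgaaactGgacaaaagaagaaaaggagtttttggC
Dnah7b: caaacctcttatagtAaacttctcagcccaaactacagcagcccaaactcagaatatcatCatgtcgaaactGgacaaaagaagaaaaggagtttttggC
Dnah7c: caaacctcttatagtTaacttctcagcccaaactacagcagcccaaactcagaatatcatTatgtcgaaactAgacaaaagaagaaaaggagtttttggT

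Neither of the other copies was lower. Dnah7b was at 3.35, 4.43 and 3.02 CPM in 5x21-OR1A1 libraries and at 3.08, 1.48 and 2.28 CPM in wild-type libraries, and Dnah7c at 4.55, 5.11 and 4.53 CPM in 5x21-OR1A1 libraries and at 3.46, 1.37 and 3.15 CPM in wild-type libraries. Both had values above 0, 0.66 (SE 0.29, edgeR adjusted p = 0.294) and 0.84 (SE 0.31, edgeR adjusted p = 0.229), which missed the threshold and were 0.43 and 0.52 without wild-type library 2. The sum of the 3 copies did not differ beyond its spread, at 12.2 ± 1.23 CPM in 5x21-OR1A1 and 12.4 ± 2.14 CPM in wild-type tissue (SD, n = 3 each; log2 ratio -0.02). A test of Dnah7a against its copies was not made.

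**Figure D3:**
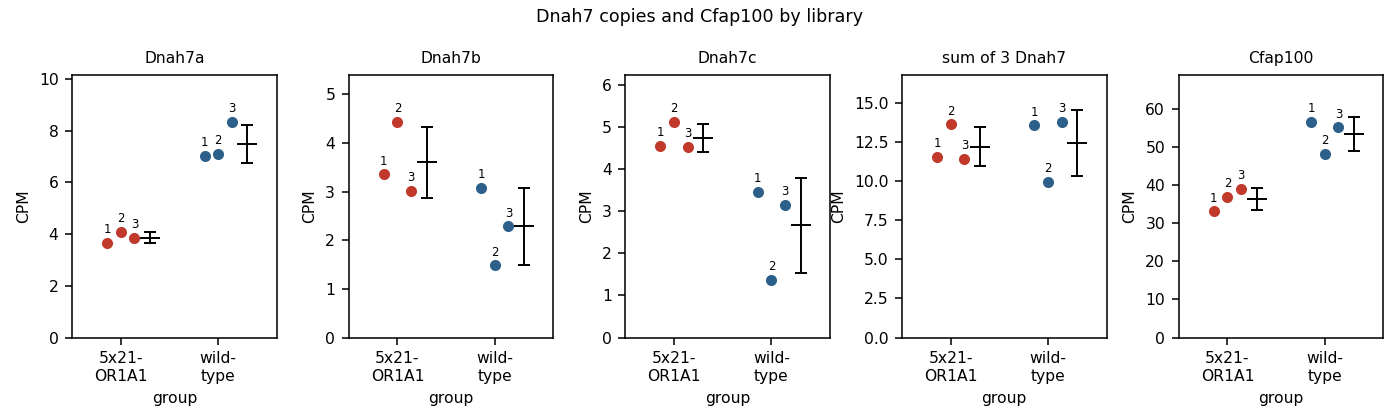
CPM of the Dnah7 copies, of their sum and of Cfap100 in each library (points, numbered by replicate; 5x21-OR1A1 red at left, wild-type blue at right), with mean and SD (bars). Dnah7a and Cfap100 do not overlap between groups, and the sums of the 3 Dnah7 copies lie between 9.97 and 13.8 CPM with the groups overlapping.

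Dnah7a was not alone in its neighbourhood. Of 18 tested genes within 1 Mb of it, 9 were lower and 1 higher at an edgeR adjusted p under 0.05, with a median log2 fold change of -0.74. The 9 lower ones, from Nab1 (-0.87) to Asnsd1 (-0.94), all lie on the side of lower coordinates, and the higher one, Gtf3c3 (1.08), a subunit of transcription factor IIIC, on the other side. Of 20 tested genes within 1 Mb of Cfap100, 0 were called, and their median was 0.08.

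**Figure D4:**
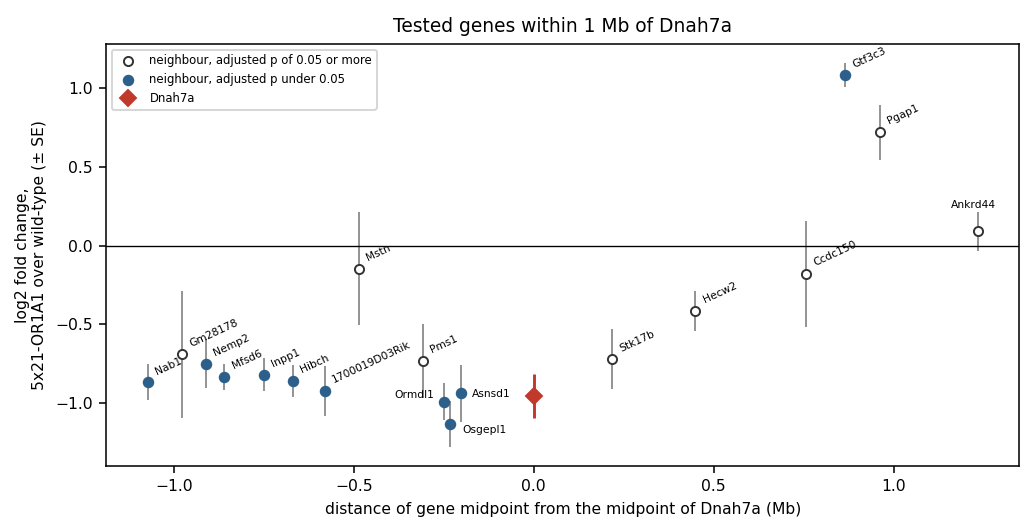
Log2 fold change, 5x21-OR1A1 over wild-type, with its standard error (vertical lines), of Dnah7a (diamond) and of the 18 tested genes within 1 Mb of it (circles, filled where the adjusted p was under 0.05), against the distance between gene midpoints in Mb. The filled circles at left lie near the value of Dnah7a (-0.95), and Gtf3c3 at right lies at 1.08.

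Cfap100 was the other axoneme gene that passed. Its counterpart in the alga Chlamydomonas belongs, with that of Cfap73, to a complex that modifies inner arm dynein at the base of the radial spokes. Cfap100 was at 33.1, 36.9 and 39.0 CPM in 5x21-OR1A1 libraries and at 56.6, 48.3 and 55.2 CPM in wild-type libraries. The groups were separate, and the log2 fold change was -0.55 (SE 0.0951, edgeR adjusted p = 0.0249). Without wild-type library 2 it was -0.62 (adjusted p = 0.0218), while without any other single library the adjusted p ran from 0.0506 to 0.113. With counts scaled to mature neuron markers the value turned to 0.13, against a median of 0.71 for all genes under that scaling. The gene lies at chr6:90403479-90428797 on the minus strand of GRCm38, and its last 12 exonic bases at one end overlap those of Zxdc on the plus strand, which had a value of -0.28 (SE 0.0759, edgeR adjusted p = 0.113). Cfap73, the partner, was at 0.43 (SE 0.33), or 0.14 without wild-type library 2, with 2.67, 3.57 and 3.28 CPM in 5x21-OR1A1 and 3.43, 1.32 and 2.32 CPM in wild-type libraries.

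Promoters were compared by their letters, since RFX and forkhead factors are known to act on ciliary genes. RefSeq (GRCm38.p6) gave a promoter, 250 bases before to 50 after the start, for 47 of the 58 genes. On either strand, GTTNCC, a site of the X-box that RFX factors bind, occurred in 33 of 47, or 70.2%, against 48.8% of 27025 genes. The same site followed after 0 to 3 bases by GGNAAC occurred in 0 of 47 and in 0.936% of all genes. A shorter inverted pair, GTTNC followed after 3 or 4 bases by GNAAC, was added after the promoter sequences had been seen and occurred in 13 of 47, or 27.7%, against 2.29% of all genes; it can overlap GTTNCC. These 13 were Cfap44, Cfap45, Cfap57, Cfap61, Dnah6, Dnah7a, Dnah7b, Dnah7c, Dnah9, Drc3, Rsph3b, Tekt2 and Tekt4. TGTTTAC, a forkhead core, occurred in 4 of 47, or 8.51%, against 4.05%. The promoters of both genes that passed and of the Dnah7 copies are shown because Dnah7a and its copies hold the same inverted pair although Dnah7a passed as lower and its copies did not pass; capitals mark matches of GTTNCC or of the inverted pair (RefSeq, GRCm38.p6; chr6:90428431-90428730 minus strand for Cfap100, chr1:53706735-53707034 minus strand for Dnah7a, chr1:46066603-46066902 plus strand for Dnah7b and chr1:46425268-46425567 plus strand for Dnah7c).
Cfap100: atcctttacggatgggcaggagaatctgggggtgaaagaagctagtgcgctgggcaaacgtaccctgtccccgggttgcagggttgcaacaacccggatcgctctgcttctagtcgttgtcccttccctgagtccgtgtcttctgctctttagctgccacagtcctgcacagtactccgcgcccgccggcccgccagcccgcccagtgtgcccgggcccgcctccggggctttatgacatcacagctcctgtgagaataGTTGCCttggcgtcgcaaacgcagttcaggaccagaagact
Dnah7a: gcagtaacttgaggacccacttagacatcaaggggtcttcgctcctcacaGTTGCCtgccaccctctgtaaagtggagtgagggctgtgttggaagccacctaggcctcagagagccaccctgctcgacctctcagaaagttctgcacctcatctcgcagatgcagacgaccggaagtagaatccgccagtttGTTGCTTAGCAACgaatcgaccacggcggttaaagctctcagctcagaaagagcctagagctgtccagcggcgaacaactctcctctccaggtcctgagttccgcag
Dnah7b: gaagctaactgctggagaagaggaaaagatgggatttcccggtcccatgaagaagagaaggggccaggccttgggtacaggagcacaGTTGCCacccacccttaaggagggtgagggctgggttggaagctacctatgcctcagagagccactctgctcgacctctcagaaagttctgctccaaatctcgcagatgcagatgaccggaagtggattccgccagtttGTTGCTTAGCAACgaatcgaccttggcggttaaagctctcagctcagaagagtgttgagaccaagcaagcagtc
Dnah7c: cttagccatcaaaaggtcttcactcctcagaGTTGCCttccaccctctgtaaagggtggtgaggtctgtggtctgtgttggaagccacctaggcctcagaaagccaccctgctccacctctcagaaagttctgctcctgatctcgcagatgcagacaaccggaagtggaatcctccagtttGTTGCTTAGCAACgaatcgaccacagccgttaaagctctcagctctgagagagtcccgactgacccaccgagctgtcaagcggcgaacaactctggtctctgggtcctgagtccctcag

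Cfap100 holds the single site without the pair. A match is a run of letters and not a site shown to be bound, and which factors act at these promoters was not measured.

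Tektins form filaments inside the wall of the doublets. Of 5 tested, 0 passed (edgeR, DESeq2 and limma-voom; 0 also at an unadjusted p under 0.05), with values between -0.10 and 0.67 and a median of 0.12. Their summed level was 117, 119 and 125 CPM in 5x21-OR1A1 libraries and 129, 98.4 and 134 CPM in wild-type libraries. The groups overlapped, and wild-type library 2 was the lowest of all 6 for each of the 5. Without it the median was -0.06 and the values ran from -0.27 to 0.36. Per kilobase of exon, Tekt1, known from airway cilia, led at 44.3 ± 2.25 CPM per kb in 5x21-OR1A1 and 47.6 ± 5.83 CPM per kb in wild-type tissue, above Tekt4, at 17.6 ± 0.233 and 16.1 ± 3.75, and Tekt2, at 5.07 ± 0.387 and 4.18 ± 0.854 (SD, n = 3 each). Tekt3, at 1.13 ± 0.211 and 1.16 ± 0.388 CPM per kb, and Tekt5, at 0.781 ± 0.188 and 0.496 ± 0.209, both known from sperm, were lowest. Of the exonic bases of Tekt2, 20.8% overlap an opposite strand gene.

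Radial spokes reach from each doublet to the central apparatus. Of 7 tested Rsph genes 0 passed in edgeR, 1 was higher and 2 lower at an unadjusted p under 0.05, and DESeq2 called 1 lower, with a median of 0.01. Rsph1, a protein of the spoke head, had the highest level per length of all 58 genes, at 98.9 ± 6.42 CPM per kb in 5x21-OR1A1 and 98.3 ± 17.4 CPM per kb in wild-type tissue (SD, n = 3 each). Rsph9, another head protein, was at 111, 113 and 122 CPM in 5x21-OR1A1 libraries and at 132, 143 and 158 CPM in wild-type libraries. The groups did not overlap, but the value of -0.33 (SE 0.0880) missed the threshold (edgeR adjusted p = 0.110; DESeq2 called it). Rsph14 was also below in all 3 libraries, at 27.1 ± 0.422 CPM in 5x21-OR1A1 and 31.7 ± 3.06 CPM in wild-type tissue (edgeR adjusted p = 0.245). The head proteins Rsph4a (0.22) and Rsph10b (0.26, or 0.03 without wild-type library 2) had values above 0 that did not pass. The stalk protein exists in the mouse as the copies Rsph3a and Rsph3b, which share 65.7 and 64.8% of their 100-base windows with other genes, mainly each other, and their sum was 16.0 ± 1.24 CPM in 5x21-OR1A1 and 16.0 ± 1.14 CPM in wild-type tissue.

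The nexin-dynein regulatory complex links neighbouring doublets. Drc1, a scaffold of that complex, was at 99.2, 107 and 107 CPM in 5x21-OR1A1 libraries and at 138, 111 and 130 CPM in wild-type libraries. The groups were separate by a narrow margin, and the value was -0.27 (SE 0.10, edgeR adjusted p = 0.202), or -0.35 without wild-type library 2 (adjusted p = 0.0895). Drc3 and Drc7 had values of 0.08 and 0.04, or 0.01 and -0.02 without that library, with overlapping groups. Of these 3 genes 0 passed in edgeR, DESeq2 or limma-voom, and 1 was lower at an unadjusted p under 0.05.

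The central apparatus was represented by 7 Cfap genes, of which 0 passed in edgeR, DESeq2 or limma-voom, 1 was higher and 1 lower at an unadjusted p under 0.05, and the median was -0.07. Cfap54, needed for ciliary motility in the mouse, was at 26.3, 28.8 and 25.4 CPM in 5x21-OR1A1 libraries and at 22.8, 17.5 and 22.5 CPM in wild-type libraries (0.36, SE 0.12, edgeR adjusted p = 0.177). Cfap69, which in the mouse is also found in the cilia of olfactory neurons, was at 138, 141 and 132 CPM in 5x21-OR1A1 libraries and at 148, 212 and 168 CPM in wild-type libraries. The groups did not overlap for either gene, and they lay in opposite directions. Wild-type library 2 was the highest for Cfap69, as it was for 13 of 14 mature neuron markers, and without it the value of -0.36 (SE 0.13, edgeR adjusted p = 0.199) was -0.20 (adjusted p = 0.319). Values of the others ran from -0.19 (Cfap74) to 0.38 (Cfap221, or 0.09 without wild-type library 2).

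Of 8 Cfap genes placed at the base of the spokes or on tethers of the arms, 1 passed, Cfap100, and the median was 0.03. DESeq2 and limma-voom each called 1 lower. At an unadjusted p under 0.05 in edgeR, 1 was higher, Cfap61, and 3 were lower, Cfap58, Cfap100 and Cfap206. Cfap43 and its partner Cfap44, which tether the double-headed inner arm, averaged 55.9 ± 3.83 and 22.9 ± 1.88 CPM in 5x21-OR1A1 and 48.2 ± 4.79 and 20.9 ± 3.40 CPM in wild-type tissue (SD, n = 3 each), with values of 0.21 (SE 0.10) and 0.13 (SE 0.13), or 0.14 and 0.09 without wild-type library 2. Cfap206, at the base of a radial spoke, was at 86.3 ± 1.79 CPM in 5x21-OR1A1 and 98.9 ± 5.62 CPM in wild-type tissue, without overlap (-0.20, SE 0.07, edgeR adjusted p = 0.213). Cfap61 (0.24), Cfap58 (-0.22) and Cfap57 (-0.07, or -0.14 without wild-type library 2) did not pass.

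Of 7 Cfap genes whose products lie inside the doublets, 0 passed in edgeR or limma-voom, 1 was lower at an unadjusted p under 0.05 and DESeq2 called 1 lower. That gene was Cfap20, which lies at the inner junction of the doublet, and it was at 140, 136 and 138 CPM in 5x21-OR1A1 libraries and at 162, 166 and 168 CPM in wild-type libraries. The spread within each group was small against the gap (-0.26, SE 0.0653, edgeR adjusted p = 0.0909). Cfap52, its neighbour at the inner junction, was at 35.8, 34.8 and 33.5 CPM in 5x21-OR1A1 libraries and at 29.0, 19.03 and 32.7 CPM in wild-type libraries (0.37, edgeR adjusted p = 0.337; 0.18 without wild-type library 2). So the groups did not overlap for either, and Cfap20 lay lower and Cfap52 higher. Cfap126 was at 73.6 ± 3.24 CPM per kb in 5x21-OR1A1 and 82.6 ± 6.65 CPM per kb in wild-type tissue, and Cfap45 at 8.87 ± 0.767 and 8.74 ± 1.59.

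The remaining 4 Cfap genes have less certain places in the axoneme. Cfap36, the most abundant of them, was at 117, 114 and 123 CPM in 5x21-OR1A1 libraries and at 140, 154 and 145 CPM in wild-type libraries, without overlap (-0.31, SE 0.0734, edgeR adjusted p = 0.0761; DESeq2 called it), and at -0.27 without wild-type library 2 (adjusted p = 0.169). Cfap97 was at 22.2 ± 1.32 CPM in 5x21-OR1A1 and 19.9 ± 0.432 CPM in wild-type tissue, and Cfap157 and Cfap99 had values of 0.09 and 0.00, or -0.04 and -0.10 without wild-type library 2.

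Values were read by the behaviour of wild-type library 2. For the 36 axoneme genes that were lowest there the median log2 fold change was 0.27 and 33 values lay above 0, and the 4 that were highest there had a median of -0.34, with 0 above 0. The other 16 had a median of -0.20, with 12 below 0, among them both genes that passed, Rsph9, Rsph14, Drc1, Cfap20 and Cfap206. The split uses the same library as the fold changes, so it can shape the direction of all 3 medians, and none is evidence of a genotype effect. Without the library, 30 of all 56 values lay above 0, with a median of 0.02.

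**Figure D5:**
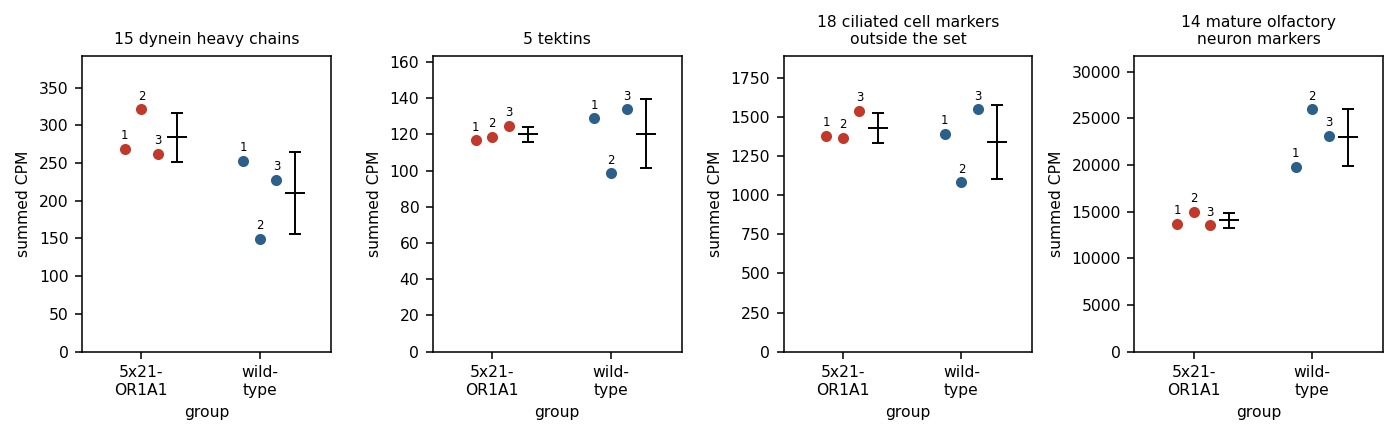
Summed CPM of 4 gene lists in each library (points, numbered by replicate; 5x21-OR1A1 red at left, wild-type blue at right) with mean and SD (bars); each panel has its own axis from 0. Wild-type library 2 is the lowest point for dynein heavy chains (149), tektins (98.4) and ciliated cell markers (1083) and the highest for mature neuron markers (25984).

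Genes of the same cilia outside the symbol rule were described by lists of their roles. Of 12 regulators of ciliogenesis 0 passed in edgeR, 2 were higher at an unadjusted p under 0.05, and DESeq2 called 1 higher, with a median of 0.23. Among them Foxj1 (0.11, SE 0.0862) and Rfx3 (-0.09, SE 0.11), which with Rfx2 (-0.07) acts on ciliary promoters, did not pass, and Mcidas, a coactivator that starts multiciliogenesis, was at 1.80 ± 0.495 CPM in 5x21-OR1A1 and 0.967 ± 0.162 CPM in wild-type tissue (0.89, edgeR adjusted p = 0.160). Of 12 further parts of the dynein arms and their docking complex 0 passed in edgeR, with a median of 0.03, 2 lower at an unadjusted p under 0.05 and 1 lower in DESeq2. Dnaic2, an intermediate chain of the outer arm, was at 72.6 ± 3.86 CPM in 5x21-OR1A1 and 57.2 ± 12.4 CPM in wild-type tissue (0.34, SE 0.15). Of 8 assembly factors, which fold the arms in the cytoplasm, 0 passed in edgeR, with a median of 0.10, 1 lower at an unadjusted p under 0.05 and 1 lower in DESeq2, and the most abundant of them, Zmynd10, had a value of -0.38 (SE 0.10, edgeR adjusted p = 0.106). Of 8 further genes of the nexin-dynein links and the molecular ruler 0 passed in edgeR or DESeq2, with a median of -0.01, 1 higher and 2 lower at an unadjusted p under 0.05.

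Of 14 further genes of the central pair and spokes 1 passed in edgeR, lower, with 5 higher and 4 lower at an unadjusted p under 0.05 and 1 higher and 3 lower in DESeq2. The gene that passed, Dnajb13, a spoke protein of the heat shock protein 40 family, was at 66.9, 67.8 and 65.3 CPM in 5x21-OR1A1 libraries and at 88.2, 91.7 and 97.8 CPM in wild-type libraries. The groups were well apart (-0.47, SE 0.069, edgeR adjusted p = 0.0136). Without 5x21-OR1A1 library 1, 2 or 3 the value of Dnajb13 was -0.48, -0.49 and -0.46 and missed the threshold (edgeR adjusted p = 0.0874, 0.0721 and 0.0978). It was -0.59 with counts scaled to ciliated cell markers (adjusted p = 0.190) and turned to 0.22 with counts scaled to mature neuron markers (adjusted p = 0.126). Hydin, a large central pair protein, had a value of 0.71 (SE 0.25, edgeR adjusted p = 0.196), Spag17 0.61, Spef1 -0.34 and Spef2 -0.35, so this list too held values on both sides, with 5 of 14 genes above in all 3 5x21-OR1A1 libraries and 5 below. The median was -0.00.

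Markers of the cell types in the tissue moved beside these genes as follows. The 18 other ciliated cell markers summed to 1381, 1368 and 1539 CPM in 5x21-OR1A1 libraries and to 1392, 1083 and 1551 CPM in wild-type libraries, with 0 called in edgeR, 4 higher and 2 lower at an unadjusted p under 0.05 and 1 each way in DESeq2 (median 0.15). With counts scaled to them, the median axoneme gene was at 0.03 and Dnah7a alone passed (-1.06, edgeR adjusted p = 0.0200), while Cfap100 was at -0.66 (adjusted p = 0.0925). The mature neuron markers summed to 13672, 14950 and 13542 CPM in 5x21-OR1A1 libraries and to 19783, 25984 and 23092 CPM in wild-type libraries, and 5 of 14 were lower in edgeR and 11 in DESeq2. Without wild-type library 2, or without any 1 of the 5x21-OR1A1 libraries, 0 of these markers passed in edgeR, with 11 to 13 of 14 lower at an unadjusted p under 0.05. Without wild-type library 1 or 3, 8 and 1 passed. Immature neuron markers (4 of 10) and progenitor markers (6 of 10) included higher genes, a count that fell to 1 of 10 and to 1 or 2 of 10 without 1 of the 5x21-OR1A1 libraries, to 2 and 3 without wild-type library 2, and to 0 and 0 with counts scaled to ciliated cell markers. DESeq2 called 6 and 10 of them higher, and 7 and 10 were higher at an unadjusted p under 0.05. Without 1 of the 5x21-OR1A1 libraries, 6 or 7 immature and 10 progenitor markers were higher at that unadjusted p. With counts scaled to ciliated cell markers 2 and 6 were. In edgeR 0 of 8 sustentacular, 12 gland and 6 basal cell markers passed, at unadjusted p under 0.05 in 2, 5 and 1 of them, with 2, 2 and 0 called by DESeq2. Of 10 markers of ependyma and olfactory bulb, tissues that can come along in dissection, 2 were lower, Slc1a2 (-0.84) and Eomes (-0.90). Slc1a2 missed the threshold without 5x21-OR1A1 library 1 or 3 or wild-type library 1 or 2 (edgeR adjusted p = 0.136, 0.129, 0.0510 and 0.0631). Eomes missed it without 5x21-OR1A1 library 1, 2 or 3 (edgeR adjusted p = 0.145, 0.102 and 0.130) and without wild-type library 2 or 3 (0.0861 and 0.0551). Without wild-type library 2 the values of Slc1a2 and Eomes were -0.70 and -0.78. The list summed to 522 to 530 CPM in 5x21-OR1A1 and 498 to 550 CPM in wild-type libraries. The part of these cell types in the values of the axoneme genes was not tested.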

How the data were processed

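Gene-level counts of 6 mRNA libraries from mouse olfactory epithelium were used, 3 from 5x21-OR1A1 and 3 from wild-type mice. Libraries were poly-A selected and unstranded (TruSeq), with single reads of 100 bp, per the labels' protocols. The deposited values are raw counts per gene symbol, not normalized; the submitters' processing notes name TopHat2 2.1.1, HTSeq 0.9.1 and GRCm38.p5. Annotation release, counting options and the fate of multi-mapped reads: not given in the sources used here.

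After the default expression filter of edgeR 4.0.16 (minimum count 10, minimum total 15; R 4.3.3), 19267 genes were scaled by TMM and tested on genotype with its quasi-likelihood test; those with a Benjamini-Hochberg adjusted p under 0.05 over all of them are called. Standard errors are the log2 fold change over the square root of F. CPM refers to TMM-scaled totals of the kept genes, and CPM per kb to exonic length in GENCODE on GRCm38. Replicates of a group differed far beyond counting noise, and none were merged; the floor of 3 counts covers counting error only. DESeq2 1.42.0 and limma-voom (limma 3.58.1) were alternatives. Dnah7 coding sequences were aligned with mafft 7.526. The procedure was tested on simulated data.

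The rule on symbols uses no counts, but it, the roles and the 14 lists were chosen with earlier results of these data known. Named genes are those past the threshold, the 4 most abundant of each role, the 3 largest rises and falls above 1 CPM, sperm forms with their airway relatives, and the called and most abundant genes of each list; others are named to complete a role, a copy family or a class, or were chosen after their values were seen. Lists were described by counts and medians, with no test over the list.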

Additional observations from a re-analysis of the deposited data

How the results depend on the processing

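Under the 15 alternatives that refit the counts, Dnah7a stayed lower in each and passed in 11, and Cfap100 stayed lower in 14 and passed in 7. In the main fit neither passed at the stricter threshold of an adjusted p under 0.01. The members called, 2 in the main analysis, numbered 51 (all higher) with counts scaled to mature neuron markers, 1 with counts scaled to ciliated cell markers, 6 in DESeq2, 3 with no filter, 0 at an adjusted p under 0.01 and 0 to 2 with 1 library left out. All genes called, 523 in the main analysis, numbered 14912 (14657 higher, 255 lower), 405, 1212, 735, 154 and 150 to 626 under the same settings in that order. Outside the neuron marker scaling, the axoneme genes called higher were Dnah5, in DESeq2 and with no filter, and Dnah12, without wild-type library 1. With the neuron marker scaling the median over all genes was 0.71, and it brought that of the axoneme genes to 0.79 and their summed log2 ratio to 0.66; with 1 library left out these last values ran from 0.02 to 0.21 and from -0.10 to -0.01. The share of promoters with a paired site, 0, became 27.7% with the shorter pair, chosen after seeing the data.

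Scaling to mature neuron markers turned Cfap100 to 0.13, Cfap126 to 0.53, Cfap20 to 0.43, Cfap206 to 0.50, Cfap36 to 0.39, Cfap57 to 0.61, Cfap65 to 0.59, Cfap69 to 0.35, Drc1 to 0.41, Rsph14 to 0.46, Rsph9 to 0.37, Tekt1 to 0.58 and Tekt3 to 0.61. Scaling to ciliated cell markers turned Cfap157 to -0.010, Cfap45 to -0.067, Cfap99 to -0.10, Dnah11 to -0.10, Drc3 to -0.029, Drc7 to -0.062 and Rsph1 to -0.081. DESeq2 size factors turned Cfap99 to -0.0049 in edgeR and -0.0040 in DESeq2, and limma-voom turned Dnah11 to -0.0071 and Tekt3 to 0.0078. Both marker scalings change every gene alike by construction. With 1 library left out, the sign turned at least once for 12 of the 56 tested axoneme genes: Cfap45 (-0.10 to 0.16), Cfap46 (-0.27 to 0.018), Cfap65 (-0.20 to 0.14), Cfap70 (-0.038 to 0.27), Cfap99 (-0.10 to 0.12), Cfap157 (-0.043 to 0.19), Dnah6 (-0.044 to 0.41), Dnah11 (-0.21 to 0.15), Drc7 (-0.024 to 0.078), Rsph1 (-0.12 to 0.12), Tekt3 (-0.27 to 0.20) and Tekt4 (-0.055 to 0.22), none of which passed the threshold.

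Same-numbered libraries did not deviate together (correlations of -0.33, 0.07 and -0.17), and those of unlike number ran from -0.20 to 0.34. With 3 libraries per group these correlations cannot settle whether the numbers pair the libraries. With the replicate number as a block, 377 genes and 1 axoneme gene were called in edgeR, Dnah7a (adjusted p = 0.0488), and Cfap100 missed (0.0571). Dnah2os and Rsph6a had too few counts to test, and the part of sequencing depth in this was not tested.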
